A study of Mus musculus with 21 samples.

Results

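The comparison set the E15.5 telencephalon of mice homozygous for a deletion of the long intergenic noncoding RNA (lincRNA) gene linc-Brn1b (linc-Brn1b-/-) against that of wild-type embryos (linc-Brn1b+/+). Genes were taken into it where the deposited expression table marked the E15.5 comparison as testable, which held for 17434 of the 40770 entries of the linc-Brn1b strain. The labels list 2 wild-type and 3 knockout libraries of whole telencephalon at this age, made with the TruSeq RNA kit from total RNA as input, a kit that sequences mRNA, among 21 libraries in all. The table gives 1 pooled expression value per genotype and no value per library. The spread between embryos and the depth of each library are therefore unknown, and no difference given here has a test or an error. In the knockout allele a lacZ reporter and a neomycin resistance gene under the human ubiquitin C promoter replace linc-Brn1b, in mice derived from 129S6SvEv and C57BL/6N hybrid embryonic stem cells and crossed to C57BL/6J. The deletion is present in every cell from the germline onwards, and every knockout embryo also carries the reporter.

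linc-Brn1b lies beside Pou3f3, which encodes the POU domain transcription factor BRN1. BRN1 and its close relative BRN2, the product of Pou3f2, act in overlapping ways in the production and migration of upper-layer neurons of the cortex. At E15.5 radial glia along the ventricle and the intermediate progenitors they give rise to are producing these neurons, while deep-layer neurons have mostly been born. The telencephalon also holds interneuron progenitors of the ganglionic eminences, the striatum and, along the dorsal midline, the choroid plexus, an epithelium that secretes cerebrospinal fluid.

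The linc-Brn1b locus spans chr1:42763911-42770553 on mm9, and the deletion removes chr1:42763988-42770543, a stretch of 6556 bp. RefSeq places the start of linc-Brn1b on the minus strand, so that it is read towards Pou3f3. The bases on either side of the deletion are printed first, since they mark what the knockout chromosome keeps, followed by the primers with which the study assayed the wild-type allele and the linc-Brn1b RNA. All 4 primers lie whole inside the deletion on mm9, and of 20 probes used to stain the RNA in situ, 18 were found whole inside it.

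Before the deletion, plus strand, chr1:42763948-42763987: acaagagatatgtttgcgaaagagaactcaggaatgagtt

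After the deletion, plus strand, chr1:42770544-42770583: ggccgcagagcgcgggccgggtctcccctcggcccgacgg

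Genotyping primer, forward, minus strand, chr1:42764166-42764185: tgccagcttggcttgtactc

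Genotyping primer, reverse, plus strand, chr1:42764079-42764099: gctcccaaaggttcctgtgtc

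RNA primer, forward, minus strand, chr1:42769068-42769088: ttttccacgttctttttgctc

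RNA primer, reverse, plus strand, chr1:42765214-42765234: ccatctgcagggaaagttaca

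The promoters of linc-Brn1b (named Pantr2 in RefSeq) and of Pou3f3 are printed next. The first, placed by the RefSeq start, lies almost whole inside the deletion. The second belongs to the neighbour whose RNA was lower in the knockout. Each covers 250 bases before and 50 after the RefSeq start, taken from the RefSeq promoter table (GRCm38.p6) and placed on mm9 by an exact match. Capitals mark the letters CCAAT on either strand, the core of a common promoter element. Of the 300 bases of the linc-Brn1b promoter, 294 lie inside the deletion. The Pou3f3 promoter holds CCAAT at 3 positions and the linc-Brn1b promoter at 2, with no overlaps. At least 1 was found in 37.4% and at least 3 in 3.37% of the 32851 promoters of that table. The Pou3f3 promoter also holds 18 CpG dinucleotides and that of linc-Brn1b 16, beside a median of 7 over all promoters.

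linc-Brn1b (Pantr2) promoter, minus strand, chr1:42770250-42770549: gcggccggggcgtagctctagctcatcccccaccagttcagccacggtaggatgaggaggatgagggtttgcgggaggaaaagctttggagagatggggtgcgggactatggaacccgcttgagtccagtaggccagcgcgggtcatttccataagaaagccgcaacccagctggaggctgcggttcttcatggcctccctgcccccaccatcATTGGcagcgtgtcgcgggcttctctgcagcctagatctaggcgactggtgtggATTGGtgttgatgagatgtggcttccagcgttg

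Pou3f3 promoter, plus strand, chr1:42752363-42752662: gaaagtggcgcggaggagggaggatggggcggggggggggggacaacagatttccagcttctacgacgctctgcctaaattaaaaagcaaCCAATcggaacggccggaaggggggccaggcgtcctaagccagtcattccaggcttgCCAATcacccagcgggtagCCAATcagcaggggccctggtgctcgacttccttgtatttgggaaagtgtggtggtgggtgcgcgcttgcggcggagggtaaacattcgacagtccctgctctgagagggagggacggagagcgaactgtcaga

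Levels are in FPKM, fragments scaled by transcript length and by library depth, and differences are knockout minus wild type in log2(FPKM + 1), which understates the change of genes at low levels. The labels were checked first at the deleted gene. Its 2 entries at chr1:42763906-42770299, linc-Brn1b and the cDNA AK011913, had wild-type levels of 2.50 and 8.73 FPKM and were both listed at 0 in the knockout. The tissue matched its label: all 10 markers of the telencephalon were testable, among them the forebrain regulators Emx1 at 32.2 FPKM in wild type and 35.7 in the knockout, and Lhx2 at 88.4 and 92.4. Of 18 midbrain and hindbrain markers, 3 were testable, with a summed level of 40.5 FPKM in wild type and 39.1 in the knockout. The others were at 0.157 FPKM or below in both genotypes. Muscle and skin markers were testable in 5 of 15 cases.

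The sexes of the embryos differed between the pooled values. Of the genes on chromosome Y, Eif2s3y stood at 9.94 FPKM in the knockout, Ddx3y at 4.98, Kdm5d at 3.55 and Uty at 2.53. In wild type Kdm5d and Uty were listed at 0, Ddx3y stood at 0.0011 and Eif2s3y at 0.0055 FPKM. The entry over Xist, the RNA that silences one X chromosome in females (linc-4930519F16Rik-1, chr X), stood at 121 FPKM in wild type and 56.3 in the knockout. The knockout value thus held RNA of both sexes and the wild-type value of females. Genes known to escape X inactivation were slightly lower in the knockout: Kdm6a by 0.13, Eif2s3x by 0.12 and Kdm5c by 0.14 in log2(FPKM + 1). Sex composition and genotype cannot be told apart in these values.

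Most of the transcriptome was at nearly the same level in both genotypes. Of the 17434 genes, 81.6% differed by at most 0.1 in log2(FPKM + 1), the median difference was 0.00083, and the standard deviation over genes was 0.15. Genes were counted as called where the difference reached 0.5 in either direction, a ratio of about 1.41 for abundant genes. By that rule 34 genes were higher in the knockout (0.195% of those tested) and 59 were lower (0.338%), or 93 in all (0.533%). The threshold cut through a continuum: 9 of the called genes lay within 0.05 above it and 23 genes lay within 0.05 below it. Called genes made up 0.732% of the 3963 genes with a mean below 1 FPKM, 1.12% between 1 and 3 FPKM and 0.175% between 30 and 100 FPKM, so the share was greatest between 1 and 3 FPKM among these levels.

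**Figure D1:**
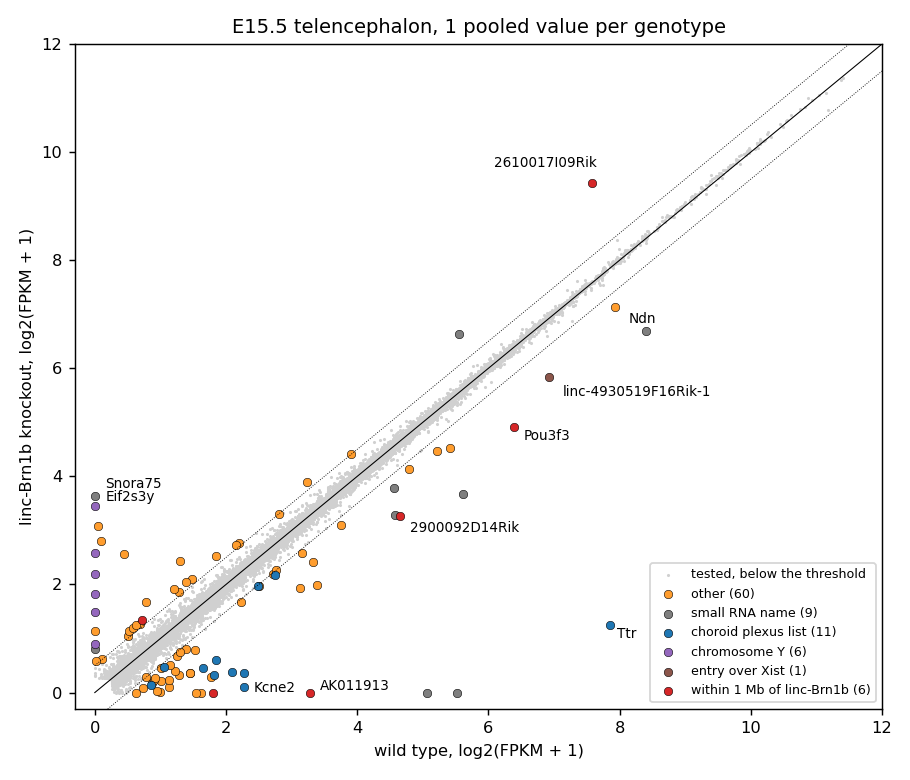
Expression of the 17434 tested genes in wild type (x axis) and linc-Brn1b knockout (y axis) telencephalon at E15.5, in log2(FPKM + 1), each point a gene and each axis 1 pooled value per genotype. Dotted lines mark differences of 0.5, and colours sort the 93 called genes. Grey points hug the diagonal, Ttr, Pou3f3 and AK011913 lie far below it, and 2610017I09Rik, the gene of linc-Brn1a, lies far above it.

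Around the deletion, the neighbours of linc-Brn1b showed large differences in both directions. The Pou3f3 entry (chr1:42753991-42757054, plus strand, annotated with 1 exon) begins 9.92 kb before the linc-Brn1b locus. The RefSeq promoter printed above, at chr1:42752363-42752662, lies before this entry, so the RefSeq start is farther from the locus. Pou3f3 stood at 82.5 FPKM in wild type and 29.2 in the knockout, 35.4% of the wild-type level. The difference was -1.47 in log2(FPKM + 1). The entry 2900092D14Rik (chr1:42757181-42760021), between Pou3f3 and the deletion, was lower to a like extent. It stood at 24.3 FPKM in wild type and 8.65 in the knockout, a difference of -1.39. On the other side of Pou3f3, linc-Brn1a (2610017I09Rik, chr1:42705045-42751670) was higher, at 191 FPKM in wild type and 689 in the knockout, a difference of 1.85. The noncoding entry linc-Pou3f3-1, farther out at chr1:42643840-42687203, was at 0.645 and 1.53 FPKM, a difference of 0.62.

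Both entries between linc-Brn1a and the deletion were thus lower, while linc-Brn1a and linc-Pou3f3-1 were higher. The 2900092D14Rik entry begins just after the Pou3f3 entry ends, and they stood at 35.6% and 35.4% of wild type. Whether these entries are separate transcripts was not tested. linc-Mrps9-1, on the far side of the deletion, was too low to be testable, at 0.169 FPKM in wild type and 0.0061 in the knockout. The protein-coding genes beyond it were close to their wild-type levels. Mrps9, a mitochondrial ribosomal protein, stood at 20.6 and 20.8 FPKM, the orphan receptor gene Gpr45 at 9.30 and 9.34, Tgfbrap1 at 14.99 and 14.3, and the adaptor gene Nck2 at 26.0 and 26.5 in wild type and knockout. Fhl2 was at 2.76 and 2.15 FPKM, a difference of -0.26.

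**Figure D2:**
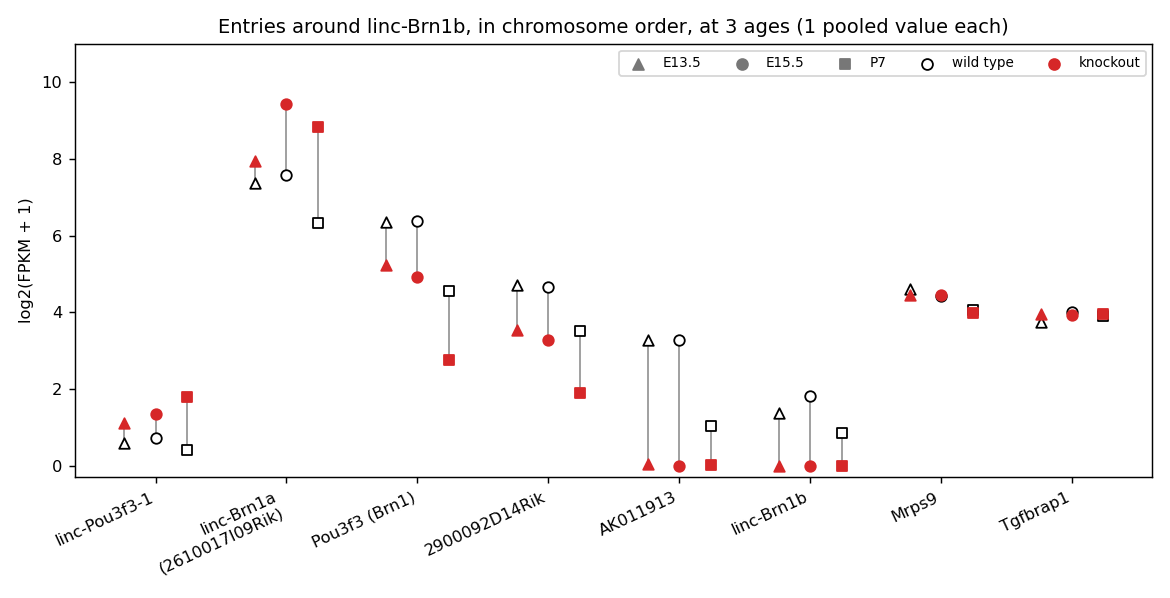
Levels of 8 entries around linc-Brn1b, in chromosome order, in log2(FPKM + 1), with open symbols for wild type and red symbols for knockout at E13.5 (triangles), E15.5 (circles) and P7 (squares), each 1 pooled value. Pou3f3 and 2900092D14Rik are lower and linc-Brn1a and linc-Pou3f3-1 higher in the knockout at all 3 ages, while Mrps9 and Tgfbrap1 nearly coincide at E15.5.

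These differences stopped abruptly along the chromosome. Of 15 tested genes that start within 1 Mb of linc-Brn1b, 6 were called, 2 higher and 4 lower, and this count includes the 2 entries of the deleted gene. None of 45 genes between 1 and 5 Mb and none of 140 between 5 and 20 Mb was called. Over the rest of chromosome 1, 7 of 815 genes (0.859%) were called, and on the other chromosomes 80 of 16419 (0.487%).

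**Figure D3:**
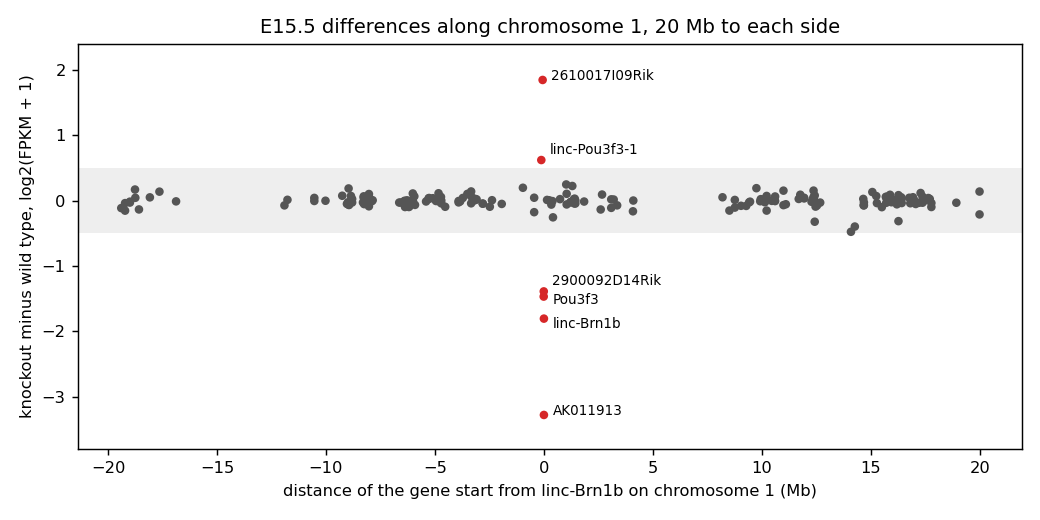
Difference between knockout and wild type at E15.5, in log2(FPKM + 1), against the distance of each tested gene from linc-Brn1b on chromosome 1, in Mb. The grey band covers differences below 0.5, and red points are called genes. All 6 red points sit within 1 Mb of linc-Brn1b, and the other genes stay inside the band out to 20 Mb.

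The other POU class III genes did not show a difference of that size. Pou3f2, the gene of BRN2, stood at 27.4 FPKM in wild type and 29.9 in the knockout, a difference of 0.13. Pou3f1 stood at 9.93 and 9.11 FPKM, a difference of -0.11, and Pou3f4 differed by 0.19. Because Pou3f3 was the most abundant of the family in wild type, the summed level of the 4 genes in the knockout was 62.9% of that in wild type.

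Away from the locus and the sex-linked genes, markers of the choroid plexus were lower in the knockout. Of 17 listed genes 16 were testable, and 11 of them were lower in the knockout by 0.5 or more, beside 0.338% of all genes. None was higher by that much, and the median difference was -0.65, beside 0.00083 over all genes tested. The list was written by hand with earlier results of these data known, so its contrast with all genes is descriptive only. The summed level of the list was 353 FPKM in wild type and 95.2 in the knockout. Ttr, which encodes the thyroid hormone carrier transthyretin and is the defining product of this epithelium, stood at 231 FPKM in wild type and 1.39 in the knockout, the lowest difference of all tested genes at -6.61.

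Several ion and solute handling genes of the list were lower as well. Kcne2, a potassium channel subunit, was at 3.84 FPKM in wild type and 0.0777 in the knockout, and Folr1, the folate receptor, was at 3.82 and 0.290. Clic6, a chloride intracellular channel protein, was at 3.28 and 0.305 FPKM, and the water channel gene Aqp1 at 2.52 and 0.249. These genes had low but readable levels in wild type and next to none in the knockout, with differences between -2.17 and -1.49. Calml4 was at 2.12 and 0.366 FPKM, the BMP antagonist gene Sostdc1 at 2.60 and 0.517, and the potassium channel gene Kcnj13 at 0.806 and 0.0976.

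The remaining members of the list showed smaller differences in log2(FPKM + 1). Otx2, the homeobox gene required for the choroid plexus and also used elsewhere in the forebrain, was at 5.69 FPKM in wild type and 3.53 in the knockout, a difference of -0.56. Msx1, a homeobox gene of the dorsal midline, was at 1.07 and 0.384, and Enpp2, which encodes autotaxin, at 4.63 and 2.91. The other 5 tested members lay below the threshold. Lmx1a, a marker of the cortical hem, differed by -0.30, Slc4a5 by -0.42, Igfbp2 by -0.12 and Cldn3 by -0.12. The exception in sign was 1500015O10Rik, at 6.42 FPKM in wild type and 7.81 in the knockout, a difference of 0.25. In bulk tissue, fewer choroid plexus cells in a dissection and less of these RNAs per cell cannot be told apart.

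**Figure D4:**
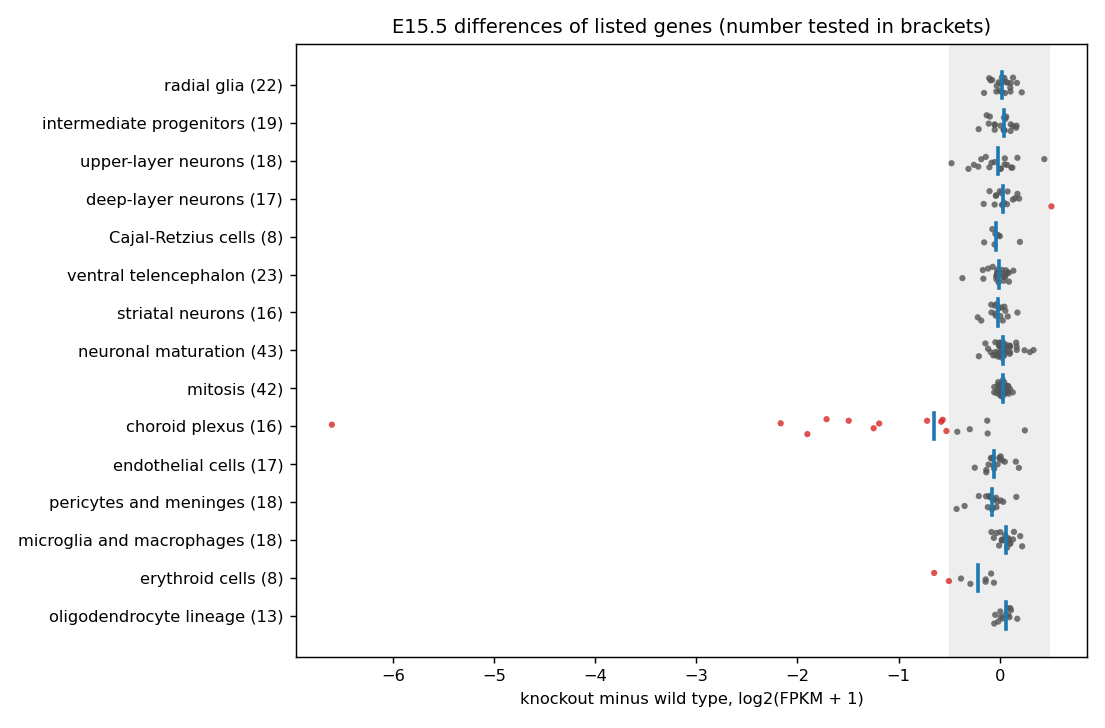
Differences between knockout and wild type at E15.5, in log2(FPKM + 1), for the tested genes of 15 lists, each point a gene, red where called, with the blue line at the list's median and the grey band below 0.5. The choroid plexus list spreads to -6.61 with a median of -0.65, the 8 erythroid genes all lie below 0, and the neuronal and progenitor lists centre near 0.

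Several genes outside that list were lower alongside it. Among them were the epithelial keratins Krt8, at 0.671 FPKM in wild type and 0.0643 in the knockout, and Krt18, at 1.18 and 0.0679. The dynein light chain gene Dynlrb2, a component of motile cilia, was at 1.74 and 0.291 FPKM, the ciliated-cell regulator Foxj1 at 3.92 and 2.92, and the cation channel gene Trpm3 at 4.70 and 2.94. Car12, a carbonic anhydrase, was at 1.88 and 0.721 FPKM and Fxyd1, a regulator of the sodium pump, at 1.47 and 0.677. Sulf1, an enzyme that edits heparan sulfate and is not confined to epithelia, was lower as well, at 7.73 FPKM in wild type and 2.83 in the knockout, a difference of -1.19. Foxj1, at -0.33, did not reach the threshold. These genes were chosen after their values were seen.

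Neuronal and progenitor lists showed no comparable difference. Of 41 gene lists, 34 had no called member. Only 0.533% of all tested genes were called, so a list with none called is near the share over all genes. In the radial glia list 0 of 22 tested genes were called, with a median of 0.026: Sox2, a core progenitor factor, stood at 50.8 FPKM in wild type and 52.5 in the knockout, Pax6 at 34.01 and 36.8, and Hes1 at 9.38 and 9.14. In the intermediate progenitor list 0 of 19 were called, with a median of 0.041. Eomes, which encodes TBR2 and marks these cells, stood at 49.5 and 50.9 FPKM, the proneural gene Neurog2 at 40.6 and 45.6, and Insm1 at 30.7 and 29.7.

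Cell cycle genes leaned slightly upwards as lists at E15.5. Of 42 mitosis genes none was called, 33 were above 0 and the median was 0.028, and of 46 DNA replication genes none was called, 41 were above 0 and the median was 0.042. For comparison 53.7% of genes at 1 FPKM or more in both genotypes were above 0, with a median of 0.0055. Mki67, the proliferation marker, stood at 48.02 FPKM in wild type and 47.5 in the knockout, Top2a at 88.5 and 92.6, and Pcna, the sliding clamp of DNA polymerase, at 169 and 173. Of 78 ribosomal protein genes 75 were above 0, with a median of 0.068, and of 77 genes of oxidative phosphorylation 73 were, with a median of 0.049. The shifts common to these lists amounted to a few percent of the level, and with 1 value per genotype their spread between libraries is unknown. In the E13.5 telencephalon and P7 brain, described below, the medians of these lists were below 0. They were -0.028 and -0.54 for mitosis and -0.21 and -0.39 for DNA replication at E13.5 and P7. Those of ribosomal proteins were -1.05 and -0.28, and those of oxidative phosphorylation -0.85 and -0.042.

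Markers of upper-layer neurons, the cells that BRN1 and BRN2 serve, were mixed. None of 18 tested genes was called and the median was -0.021. Cux2, a homeobox gene of upper-layer neurons and their progenitors, stood at 18.7 FPKM in wild type and 14.9 in the knockout, a difference of -0.31. Cux1 differed by -0.10 and Inhba, an activin subunit, by -0.26. At the other end Calb1, the calcium-binding protein calbindin, was at 6.33 and 8.96 FPKM, a difference of 0.44.

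Among 17 tested deep-layer genes, Crym, a thyroid hormone binding protein, was called higher, at 13.98 FPKM in wild type and 20.4 in the knockout, a difference of 0.51 just past the threshold. Fezf2, the selector of corticospinal neurons, stood at 46.6 and 53.4 FPKM, a difference of 0.19. Bcl11b, which encodes CTIP2, was at 51.2 and 49.5 FPKM and Tle4 at 28.03 and 28.7. The median of the list was 0.033. Of the 8 Cajal-Retzius genes none was called, and Reln, which encodes the guidance protein reelin, stood at 48.1 FPKM in both genotypes.

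The ventral lists were as flat. None of 23 ventral telencephalon genes was called (median -0.011), with Dlx1 at 137 and 140 FPKM and Gad1, a GABA-synthesizing enzyme, at 42.5 and 44.3. The neuropeptide gene Npy was the lowest of the list, at 41.0 FPKM in wild type and 31.5 in the knockout, a difference of -0.37. None of 16 striatal genes was called (median -0.020). Among 43 genes of neuronal maturation none was called (median 0.029): Dcx, a microtubule protein of young neurons, stood at 242 and 241 FPKM, while the later synaptic genes Nrgn, Sv2b and Camk2a differed by 0.33, 0.30 and 0.25. Axon guidance (37 tested, median -0.012), the Notch pathway (22, median -0.015) and the Wnt pathway (29, median -0.030) had no called gene.

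Markers of non-neural cells differed little, apart from the blood. None of 17 endothelial genes was called (median -0.055), with Pecam1 at 7.39 and 6.89 FPKM, and none of 18 pericyte and meningeal genes (median -0.073), although 15 of these were below 0. Igf2, a growth factor made by meninges and vessels, was the lowest of them, at 13.7 and 9.97 FPKM, and the collagen gene Col1a2 differed by -0.35. None of 18 microglial genes (median 0.063), 13 oligodendrocyte lineage genes (median 0.057) or 11 astrocyte genes (median 0.019) was called. Of 8 tested erythroid genes all were below 0 and 2 were called, with a median of -0.21. Both were embryonic globins: Hbb-y stood at 26.7 FPKM in wild type and 16.7 in the knockout, and Hba-x at 5.79 and 3.79. The part of blood content in other differences was not tested.

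Ndn was the most abundant protein-coding gene among those called lower outside these groups. It encodes necdin, a maternally imprinted growth suppressor of postmitotic neurons, and stood at 243 FPKM in wild type and 140 in the knockout, a difference of -0.79. Of 17 tested imprinted growth genes it was the only one called, and the median of the list was -0.018. In the list of neural and nuclear lncRNAs, linc-Brn1a was the only called gene of 10. The lists of immediate early genes (15 tested, median 0.032), hypoxia response (15, median -0.030), ATF4 stress response (16, median -0.034) and interferon response with MHC class I (13, median -0.027) had no called member. The same held for splicing factors (46, median 0.0024), PRC2 and Trithorax genes (21, median -0.015), cholesterol synthesis (20, median 0.026), glycolysis (17, median -0.0022), tubulins (11, median 0.018), diencephalic markers (11, median 0.051) and snoRNA host genes (6, median -0.030).

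Many of the remaining called entries belong to small RNAs or to second entries of a gene. Of 22 tested entries with the name of a small nucleolar RNA or microRNA, 9 were called (40.9%), in both directions. Snora31 stood at 337 FPKM in wild type and 102 in the knockout while Tpt1, the gene at whose locus it lies, differed by 0.012. Snora44 stood at 48.04 and 11.8 FPKM beside a difference of -0.017 for its host Snhg12, and Snora28 at 45.7 and 98.1 beside -0.010 for Eif5. Snora3 and Mir760 were listed at 0 in the knockout after 32.4 and 44.9 FPKM in wild type, and Snora75 at 0 in wild type and 11.5 FPKM in the knockout. Such RNAs are shorter than most fragments of a library of this kind, and 13 of the 93 called genes were listed at 0 in one genotype.

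The other 60 called genes lay outside the 1 Mb window, chromosome Y, the entry over Xist, the choroid plexus list and the small RNA names, and include Ndn, Crym, Hbb-y, Hba-x, Krt8, Krt18 and Sulf1, described above. Of all called genes 64.5% shared a locus with another entry, beside 54.2% of tested genes. At 32 of the loci of these 60 genes a more abundant entry was present. None of the 32 was called, which is near the share of 0.533% over all tested genes. The greatest difference among them was 0.28. NCX1, an alias entry at the locus of the sodium-calcium exchanger gene Slc8a1, stood at 0.361 FPKM in wild type and 4.93 in the knockout, while Slc8a1 itself differed by 0.048. Vdu2 was at 1.47 and 4.44 FPKM beside a difference of -0.028 for Usp20, and Kbp at 1.30 and 2.78 beside -0.015 for 2510003E04Rik. Likewise Pra1 differed by 0.66 beside -0.14 for Rabac1, mKIAA0031 by 0.91 beside 0.029 for Eftud2, mKIAA0410 by 0.62 beside -0.049 for Nupl1 and FGF-14C (FHF-4C) by 0.64 beside -0.26 for Fgf14. Rab2A was listed at 0 in wild type and 1.21 FPKM in the knockout, beside 0.038 for Rab2a. At these loci the second entry passed the threshold and the more abundant entry did not.

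Among the noncoding and clone entries with the greatest differences, 6530401D17Rik stood at 0.0339 FPKM in wild type and 7.42 in the knockout, and linc-Traf7-AS at 0.0693 and 5.95. Both share their locus with an entry near 32 FPKM in wild type that differed by -0.26 and -0.28. linc-LOC100861615-4 was at 2.61 and 4.75 FPKM. AK185715 was at 2.41 and 0.226 FPKM, and AK013627 was listed at 0 in the knockout after 1.91 FPKM in wild type, as was the defensin entry Defb11 after 2.06.

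The E13.5 telencephalon and P7 brain of the same strain, 2 libraries per genotype at each age, are separate libraries in which the E15.5 differences could be looked up. Both ages had broader differences than E15.5: the standard deviation over genes was 0.33 at E13.5 and 0.29 at P7. At E13.5, 2.34% of tested genes were higher and 5.76% lower by 0.5 or more, and at P7 2.79% were higher and 2.88% lower. Of the 29 E15.5-higher genes tested at E13.5, 7 were higher and 13 lower there, and of 51 E15.5-lower genes 9 were lower and 7 higher. At P7, 10 of 29 were again higher and 4 lower, and 20 of 50 were again lower and 4 higher. The counts were also taken without chromosome Y, the entry over Xist and the window around linc-Brn1b. At P7, 2 of 21 were then again higher and 4 lower, and 15 of 45 were again lower and 4 higher. At E13.5, 5 of 21 were higher and 7 lower, and 5 of 46 were lower and 6 higher.

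The locus was alike at every age. Pou3f3 stood at 81.5 FPKM in wild type and 36.5 in the knockout at E13.5, and at 22.7 and 5.81 at P7, differences of -1.14 and -1.80. 2900092D14Rik differed by -1.18 and -1.62 at these ages. linc-Brn1a differed by 0.57 at E13.5, from 165 to 245 FPKM, and by 2.49 at P7, from 79.7 to 453 FPKM, so that the value at E15.5 lay between them. Of the 74 called genes tested at all 3 ages, 8 passed the threshold in the same direction at each. Of these, 6 were the 6 of the window, which include the 2 entries of the deleted gene. The other two were Capn11, a calpain protease gene, at 1.19 FPKM in wild type and 0.169 in the knockout at E15.5, and the low entry BC017612, at 0.0174 and 0.507.

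Neither the choroid plexus nor the sex-linked differences had the same sign throughout. The median of the choroid plexus list was 0.19 at E13.5 and -0.27 at P7, against -0.65 at E15.5. None of 16 tested members was called in either direction at E13.5, and 4 of 17 were called lower at P7. Ttr differed by 0.37 at E13.5 and by -0.55 at P7, Kcne2 by 0.47 and -0.53, and Folr1 by 0.028 and -0.59. Y-linked RNA was on the wild-type side at E13.5, where Eif2s3y stood at 16.5 FPKM in wild type and 0.0072 in the knockout, and on the knockout side at P7. The entry over Xist was at 0.388 and 109 FPKM in wild type and knockout at E13.5, the reverse of E15.5. Hbb-y was lower in the knockout at E13.5 as well, at 982 FPKM in wild type and 421 in the knockout, a difference of -1.22, and was listed at 0 in wild type at P7.

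**Figure D5:**
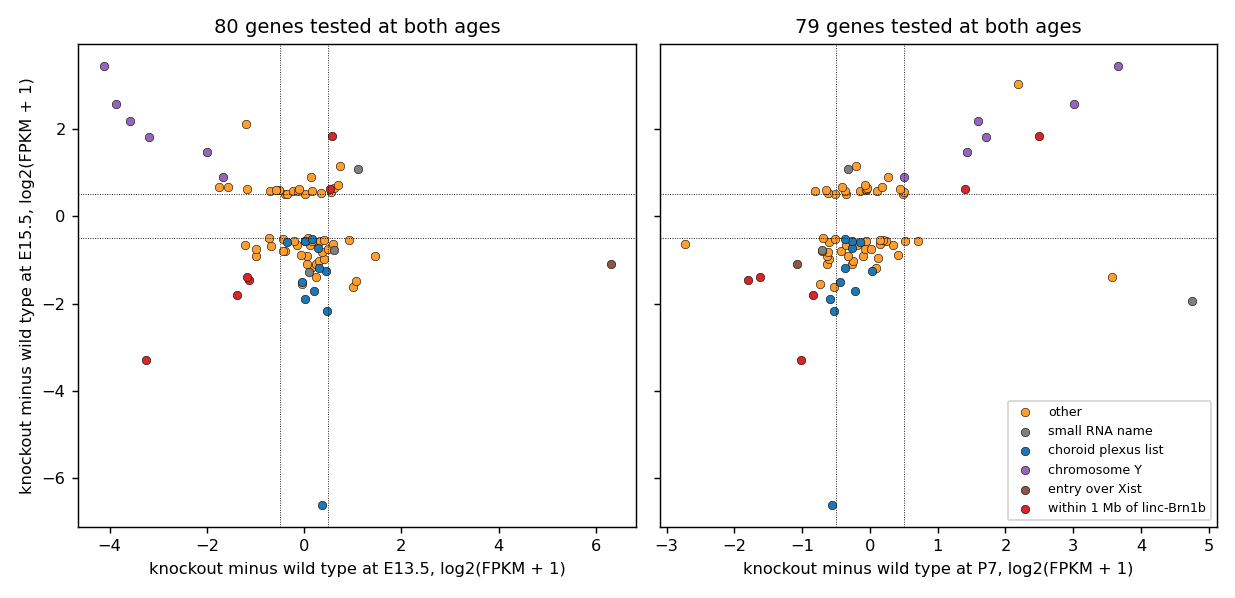
Differences between knockout and wild type of the E15.5-called genes at E15.5 (y axis) against those at E13.5 (left, 80 genes) and P7 (right, 79 genes), in log2(FPKM + 1), each point a gene and dotted lines at 0.5 in each direction. The 6 genes around linc-Brn1b lie on the rising diagonal in both panels, the Y-linked genes change sides between them, and the choroid plexus genes, Ttr at -6.61 among them, reach lower values at E15.5 than at either other age.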

How the data were processed

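The study made paired-end TruSeq mRNA libraries from total RNA of whole telencephalon. Per the labels and the methods, the authors aligned reads to mm9 with TopHat2 and estimated expression with Cufflinks 2.0.2 and Cuffdiff2. The values the authors deposited are FPKM scaled across libraries and pooled to 1 value per group. The table has 0 columns of values per sample, depth is unknown, and which of the 3 labelled knockout libraries entered the value is not given in the sources used here (the study states 2 per group). The table's own fold changes, test statistics, p-values and q-values for 15 comparisons were not used. The tables of the other strains were not used here either.

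Differences were computed with Python 3.11.15, pandas 2.3.3 and numpy 2.4.6 as log2(knockout FPKM + 1) minus log2(wild type FPKM + 1) for genes with the status OK, and called at 0.5. Starts were counted from 1. The members and the 41 hand-written gene lists were chosen with earlier results of these data known. Named genes are the called genes within 1 Mb, the 10 highest and 10 lowest symbols and the 5 highest and 5 lowest noncoding or clone names at 1 FPKM or more in 1 genotype, and the first 3 and the called members of each list. Other named genes were chosen after their values were seen, and some genes that the rule names are not reported here. The call rule was tested on simulated data with 200 changed genes. Alternatives were the pseudocount, status, level, threshold, centring, sex chromosomes and sums per locus.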

Additional observations from a re-analysis of the deposited data

How the results depend on the processing

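The difference of Pou3f3, 2900092D14Rik and linc-Brn1a moved by at most 0.1 under every pseudocount and the centring. A pseudocount cannot change the sign of a difference, and the centring shifted values by only 0.0055. These alternatives therefore could not have reversed a called difference. Counts of genes higher and lower in the knockout, 34 and 59, were 186 and 328 with a pseudocount of 0.1. Under alternatives chosen after seeing the data they were 201 and 269 with a threshold of 0.25, and 10 and 42 loci when FPKM was summed over the entries of a locus. They were 13 and 25 with a threshold of 1. Without a pseudocount and with 1 FPKM in both genotypes, 3 genes were called within 1 Mb and 3 choroid plexus members were lower, since genes below 1 FPKM in either genotype drop out; the latter were 7 with a threshold of 1. Ttr differed by -7.28 with a pseudocount of 0.1 and by -7.38 without one, and the choroid plexus median was -1.98 and -0.41. Genes of the same direction at another age, in the order higher at E13.5, lower at E13.5, higher at P7 and lower at P7, numbered 44, 49, 30 and 70 with a pseudocount of 0.1, and 53, 48, 43 and 84 with a threshold of 0.25. With a threshold of 1 those at E13.5 were 1 and 4 and the lower genes at P7 were 4, and without a pseudocount the P7 counts were 2 and 11. Without chromosomes X and Y, 3 of the higher genes were again higher at P7. Leaving out each replicate was not run, because the table holds no values per library. No paired analysis was possible because each genotype has 1 pooled value.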

Other observations

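Below the threshold of 0.5, 22 tested genes with a mean of at least 10 FPKM differed by 0.3 or more, 12 of them lower and 10 higher in the knockout. Fam84a was the lowest, at 30.4 FPKM in wild type and 21.4 in the knockout. The ubiquitin ligase gene Pdzrn3 was at 12.2 and 9.31 FPKM and the amino acid transporter gene Slc6a15 at 23.5 and 18.8. On the higher side were Igfbp5, a binding protein of insulin-like growth factors, at 21.9 and 27.998 FPKM, and the metallothionein gene Mt2 at 19.5 and 24.6.

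Some of the most abundant RNAs had no usable value at E15.5. Eef1a1, a translation elongation factor, and Tuba1a, the main tubulin of young neurons, stood at 4664 and 4122 FPKM in wild type and were listed at 0 in the knockout, with a status that marks too many fragments to estimate. Tmem229b, with a failed estimate, had 36.7 FPKM in the knockout and was listed at 0 for wild type. These entries were outside the 17434 genes.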
